A study of Homo sapiens with 208 samples.

Results

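The genes described are 10 members of the Eph receptor and ephrin family, followed in 2 lung adenocarcinoma lines while the EGF receptor was stimulated, inhibited or left alone. They were listed by name, with earlier results of these data known, and found on the array through the RefSeq accessions of its probes. No threshold on a measured value entered the list. The 6 receptors are EPHA1, EPHA2, EPHA4, EPHB2, EPHB3 and EPHB4, and the 4 ligands are EFNA1, EFNA4, EFNB1 and EFNB2. Together they are measured by 14 of the 41000 probes and are 10 of 16961 genes with a probe. All 10 passed the filter on dim signals that kept 13276 genes, and 9 were well above background on every array. The EFNB2 probe used was not well above background on 1 array each of 3 courses. PC9 is a gefitinib-sensitive human line whose EGFR carries an activating deletion in the kinase domain. PC9GRM2, named PC9M2 in the study's text, is 1 resistant line that was derived from PC9 by long culture with the drug, and per the labels it carries neither the gatekeeper mutation of EGFR nor extra copies of MET. Cells of both lines were starved for 48 h. They then received no treatment, 100 ng/ml EGF from 0 h, 0.5 uM gefitinib from 2 h before 0 h, or both agents. Gefitinib is a small-molecule inhibitor of the EGFR kinase. RNA of 26 time points between 0 and 24 h was hybridized once each, which gave 8 courses of 26 one-colour arrays. No array was repeated, so the spread was taken over time points.

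Eph receptors are the largest family of receptor tyrosine kinases, and their ligands, the ephrins, are held on the surface of neighbouring cells. A-class ephrins are anchored by a lipid tail and B-class ephrins span the membrane, and each class binds mainly the receptors of its own letter, with EPHA4 as a receptor that binds both. Contact between receptor and ephrin signals into both cells and controls adhesion, repulsion and the sorting of cells at tissue borders. EPHA2 is abundant in many carcinomas, including those of the lung, and its gene is known to respond to growth factor signalling through ERK.

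The promoters of EPHA2 and EFNA1 are shown because these are the members whose untreated and gefitinib-treated arrays did not overlap in PC9, in opposite directions. Each window runs from 250 bases before to 50 bases after the start site, 5' to 3' on the gene's strand, in RefSeq's annotation of GRCh38.p14. The EPHA2 window lies at chr1:16156020-16156319 on the minus strand and that of EFNA1 at chr1:155127626-155127925 on the plus strand, and both hold sequence upstream of the gene and the first transcribed bases. Capitals mark a match to 1 of 4 motifs searched.
EPHA2: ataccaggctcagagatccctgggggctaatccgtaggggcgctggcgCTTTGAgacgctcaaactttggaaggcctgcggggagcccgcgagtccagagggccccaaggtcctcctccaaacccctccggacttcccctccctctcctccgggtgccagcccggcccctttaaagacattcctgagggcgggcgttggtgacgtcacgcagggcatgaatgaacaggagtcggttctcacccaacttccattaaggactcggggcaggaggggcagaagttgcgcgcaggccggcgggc
EFNA1: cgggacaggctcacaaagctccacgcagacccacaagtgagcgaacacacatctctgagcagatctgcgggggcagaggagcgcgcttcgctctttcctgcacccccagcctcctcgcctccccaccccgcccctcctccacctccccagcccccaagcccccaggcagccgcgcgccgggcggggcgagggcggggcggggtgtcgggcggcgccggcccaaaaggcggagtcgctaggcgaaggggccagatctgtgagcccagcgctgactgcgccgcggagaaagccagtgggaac
The motifs were TGANTCA (the AP-1 site), CCGGAA (the core of ETS sites), CTTTGA (the core of TCF/LEF sites) and GTAAACA (the FOXO and forkhead core), each searched on both strands. Their share among all 35114 RefSeq promoter windows was 7.71%, 17.2%, 12.9% and 3.42%, in that order, and 36.6% of the windows held at least 1 of them. Windows were found for all 10 genes, and the only match was CTTTGA in the EPHA2 window, which begins at position -202 from the start site. GC content was 64.3% in the EPHA2 window and 71.7% in the EFNA1 window, against a median of 58.7% over all windows. EPHA2, EPHB2, EFNA1 and EFNA4 lie on chromosome 1, EPHA1 and EPHB4 on chromosome 7, EPHA4 on 2, EPHB3 on 3, EFNB2 on 13 and EFNB1 on X.

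Levels are log2 of the quantile-normalized signal and are compared between arrays for the same probe, never between genes. The number of features well above background went from 24755 to 36332 across arrays (median 30235.5). All 4 treatments of a line shared a slide at every time point, always in the same order, so treatment and slide position cannot be told apart. The lines shared 0 slides and 0 of their 8 and 9 scan days, so line and scanning period cannot be told apart either. All 6 epithelial markers were well above background on every array. Of 5 lung markers, NAPSA and SFTPC reached that mark on 25 or 26 of the 26 arrays of each course, SFTPB on 9 to 13, SFTPA1 on 3 to 13 and NKX2-1 on 0 to 3. Summed signals on the log2 scale ran from 4.69 to 8.28 for 4 blood markers and from 4.37 to 7.35 for 5 fibroblast markers, none of either on every array. The sum of 3 endothelial markers, 1 of them well above background on every array, was 9.48 to 10.74 in untreated PC9 and 8.18 to 8.98 in untreated PC9GRM2, and 9.70 to 10.76 and 7.70 to 10.19 with gefitinib. Of these, VWF went from a median of 6.71 to 8.66 with gefitinib in PC9 and from 5.70 to 6.98 in PC9GRM2, PECAM1 from 10.02 to 9.73 and from 8.44 to 9.42, and CDH5 was well above background on 3 to 5 arrays of each course. Their part in the differences by line and by gefitinib was not tested. DUSP6, a phosphatase induced by ERK signalling that served as the check of the drug, was lower with gefitinib at 26 of 26 time points in both lines, by -6.80 in PC9 and by -2.17 in PC9GRM2 (mean log2 difference, n = 26).

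At 0.5 h the PC9GRM2 libraries labelled EGF and EGF plus gefitinib went against their labels. The differences of that pair over all tested genes had a correlation of -0.39 with the mean of the other 25 time points, while the next lowest value was 0.24 and the highest 0.92. In the other 3 comparisons with gefitinib no time point was below 0. EPHA2 read 7.09 in the library labelled EGF, where the other 25 time points ran from 10.12 to 12.11, and 10.68 in the library labelled EGF plus gefitinib, where the others ran from 7.65 to 10.54. EFNA1 and DUSP6 were displaced the same way, with 12.68 and 11.06 for EFNA1 and 7.75 and 12.54 for DUSP6 in the libraries labelled EGF and EGF plus gefitinib. The labels were kept, and member differences called in the comparisons that use these arrays are also given without 0.5 h. At 0 h the untreated PC9GRM2 array read 2.54 for the EFNB2 probe and was not well above background there, while the lowest other time point of that course was 7.80. The second EFNB2 probe read 13.41 on the same array, above its lowest value of 12.67 at other times.

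**Figure D1:**
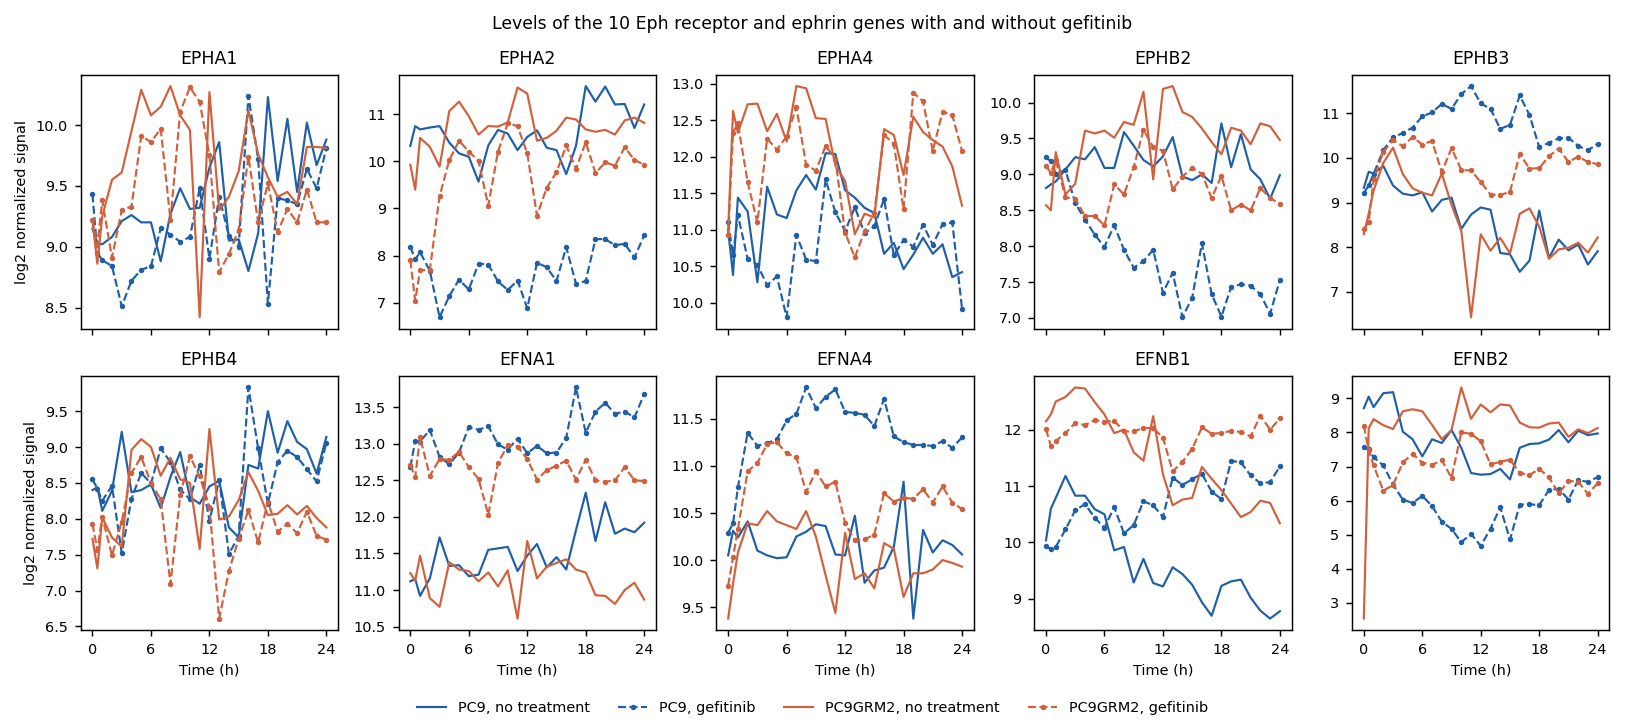
Log2 normalized signal (y) of the 10 genes against time in hours (x), 1 array per point, in untreated cells (solid) and with gefitinib (dashed, dots) of PC9 (blue) and PC9GRM2 (orange). The dashed EFNA1 lines stay above the solid ones at all 26 time points in both lines, the PC9 EPHA2 lines never meet, and the single EFNB2 value of 2.54 lies at 0 h.

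Averaged over 24 h, EPHA2, EPHB2 and the ligand EFNB2 were lower and EPHB3, EFNA1, EFNA4 and EFNB1 higher with gefitinib in both lines. The mean EFNB1 difference over 0 to 8 h was below 0 in both lines, and EPHB2 was higher with gefitinib at 0 h in both. Rises and falls given with a size compare arrays with and without an agent at matched time points. EPHA2 fell 7.4-fold in PC9 and 2.11-fold in PC9GRM2, averaged over 24 h, and EFNA1 rose 3.06-fold and 2.85-fold. The size of the EPHA2 fall in PC9 depended on the processing, with log2 differences from -3.17 to -1.98 over the alternatives. In PC9, 8 of the 10 members were called, 4 higher and 4 lower, where 72.3% of all tested genes were called, 35.1% as higher and 37.2% as lower. In PC9GRM2, 9 were called, 4 higher and 5 lower, against 66.7% of all genes, 32.6% as higher and 34.1% as lower. The share of members called was near that of all genes. The sizes were larger, but they are no test of the family. The list was made with earlier results of these data known, and 9 of the 10 members were well above background on every array. The median size of the difference was 1.21 over the members and 0.44 over all tested genes in PC9, and 0.64 and 0.32 in PC9GRM2. In these bulk samples fewer cells expressing a gene and less RNA per cell cannot be told apart. Called here means an adjusted p under 0.05 in limma's moderated test of the time-matched differences, two-sided, with Benjamini-Hochberg adjustment over 13276 genes. Since neighbouring time points resemble each other (correlation of successive gefitinib differences from -0.00 to 0.88 over the members) and the labels name no separate cultures, these p-values measure the spread between time points and treat them as independent.

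EPHA2, a receptor for EFNA1, fell most among the members in PC9. In PC9GRM2 EFNB2 and EPHA2 were close, with mean log2 differences of -1.12 and -1.08. Over the alternatives these ran from -1.39 to -0.58 and from -1.10 to -0.85, so their order depended on the setting. Lowest, median and highest log2 levels of EPHA2 were 9.57, 10.62 and 11.60 over 26 untreated PC9 arrays, and 6.69, 7.78 and 8.43 with gefitinib. These groups did not overlap. The mean log2 difference was -2.89 (SE 0.11, adjusted p = 5.26e-18, lower at 26 of 26 time points). In the main processing only 0.881% of the tested genes moved further in size. Over the alternatives the difference ran from -3.17 to -1.98, and the call held in 16 of 16. In PC9GRM2 the untreated levels were 9.40, 10.71 and 11.57 and the treated ones 7.04, 9.95 and 10.81, and these groups overlapped widely. The mean log2 difference there was -1.08 (SE 0.13, adjusted p = 4.42e-08), with 0 of 26 time points higher. Over scan days the mean differences of EPHA2 ran from -3.24 to -2.49 in PC9 and from -2.81 to -0.64 in PC9GRM2. Groups without overlap were found for 1.58% of all genes in PC9 and for 0.836% in PC9GRM2. Among the members they were EPHA2 and EFNA1 in PC9, and EFNA1 in PC9GRM2.

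Averaged over 24 h, the other A-class receptors moved little. EPHA4, which binds both classes of ephrin, had a median of 11.18 untreated and 10.89 with gefitinib in PC9, within overlapping ranges of 10.28 to 12.05 and 9.80 to 11.69. Its mean log2 difference was -0.27 (SE 0.11, adjusted p = 0.0345) in PC9 and -0.20 (SE 0.10, adjusted p = 0.0978) in PC9GRM2. These means join time points of both directions, with EPHA4 higher under gefitinib at 10 of 26 in PC9 and 9 of 26 in PC9GRM2. In PC9 it read 11.16 untreated and 9.80 treated at 6 h, 10.35 and 11.10 at 23 h, and 10.42 and 9.92 at 24 h. The other EPHA4 probes gave -0.46 and -0.50 in PC9 and -0.26 each in PC9GRM2. EPHA1, an epithelial receptor, differed by -0.19 (SE 0.11, adjusted p = 0.104) in PC9 and fell by 0.24 (SE 0.10, adjusted p = 0.0361) in PC9GRM2. The EPHA4 call in PC9 held in 11 of 16 alternatives and the EPHA1 call in PC9GRM2 in 12 of 17, and both were lost with scan day as a random block.

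Among the B-class receptors, EPHB2 and EPHB3 went opposite ways. Both are known as target genes of beta-catenin and TCF that position cells along the intestinal crypt. EPHB2 ranged from 8.66 to 9.71 with a median of 9.09 in untreated PC9 and from 7.01 to 9.24 with a median of 7.74 under gefitinib, so the ranges overlapped only in part. Its mean log2 difference was -1.24 in PC9 (SE 0.15, adjusted p = 1.58e-08) and -0.65 in PC9GRM2 (SE 0.10, adjusted p = 3.94e-06), and was higher at 3 of 26 time points in each. In PC9GRM2 its medians were 9.61 untreated and 8.80 treated. With normexp background correction the fall of EPHB2 in PC9 was -0.74. EPHB3 ranged from 7.45 to 9.82 with a median of 8.81 in untreated PC9 and from 9.21 to 11.61 with a median of 10.60 under gefitinib. In PC9GRM2 its medians were 8.41 and 9.89, between 6.43 and 10.23 untreated and between 8.41 and 10.47 treated. The treated arrays lay mostly above the untreated ones, with some overlap. EPHB3 rose by 1.97 (SE 0.20, adjusted p = 1.04e-09, 23 of 26 time points higher) in PC9 and by 1.19 (SE 0.15, adjusted p = 8.66e-08, 25 of 26) in PC9GRM2. EPHB4, the receptor of EFNB2 that marks veins during vessel growth, had medians of 8.51 and 8.53 in PC9 and of 8.13 and 7.95 in PC9GRM2, with ranges that overlapped almost fully. It differed by -0.08 (SE 0.11, adjusted p = 0.503) in PC9 and fell by 0.29 (SE 0.11, adjusted p = 0.0198) in PC9GRM2. That call held in 11 of 17 alternatives, and scaling to the 75th percentile and scan day as a block were among those that lost it.

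Both A-class ligands rose in both lines. EFNA1, the ligand first found as a product induced in endothelium by tumour necrosis factor, had untreated levels of 10.92, 11.51 and 12.33 in PC9 (lowest, median and highest) and treated levels of 12.68, 13.08 and 13.77. In PC9GRM2 the untreated levels were 10.61, 11.19 and 11.67 and the treated ones 12.03, 12.68 and 13.09. Every treated array was above every untreated array of its line. EFNA1 rose by 1.61 (SE 0.07, adjusted p = 1.17e-17) in PC9 and by 1.51 (SE 0.06, adjusted p = 7.02e-18) in PC9GRM2, higher at 26 of 26 time points in each, and within scan days by 1.44 to 1.90 and by 1.29 to 1.73. Its second probe gave 1.54 and 1.43, and was saturated on 3 of the gefitinib arrays of PC9. EFNA4 had medians of 10.12 and 11.31 in PC9 and of 9.98 and 10.69 in PC9GRM2, with overlapping ranges. It rose by 1.17 (SE 0.09, adjusted p = 5.95e-12) and by 0.63 (SE 0.06, adjusted p = 3.01e-10), again at 26 of 26 time points in both lines.

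The B-class ligands diverged. EFNB2, the ligand that marks arteries during vessel growth, had levels of 6.62, 7.79 and 9.18 in untreated PC9 and of 4.67, 5.98 and 7.56 under gefitinib, which overlapped in part. It fell by 1.79 (SE 0.09, adjusted p = 2.12e-15, lower at 26 of 26 time points). In PC9GRM2 its median went from 8.24 to 7.04, with untreated values from 2.54 to 9.32 and treated values from 6.20 to 8.20. The mean log2 difference there was -1.12 (SE 0.27, adjusted p = 0.000539), and without 0 h it was -1.39 (adjusted p = 1.6e-14). The second EFNB2 probe gave -1.70 in PC9 and -1.29 in PC9GRM2. With normexp background correction, which compresses dim signals, the falls of EFNB2 were -0.62 and -0.58. With time points 3 h apart the PC9GRM2 call was lost (adjusted p = 0.463). EFNB1, encoded on the X chromosome, had medians of 9.39 and 10.71 in PC9 and of 11.39 and 11.98 in PC9GRM2, and the ranges overlapped. It rose by 1.03 (SE 0.21, adjusted p = 9.35e-05, 18 of 26 time points higher) in PC9 and by 0.43 (SE 0.15, adjusted p = 0.0104, 16 of 26) in PC9GRM2. With the variance enlarged for the resemblance of neighbouring time points, the adjusted p of EFNB1 was 0.294 in PC9 and 0.462 in PC9GRM2.

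**Figure D2:**
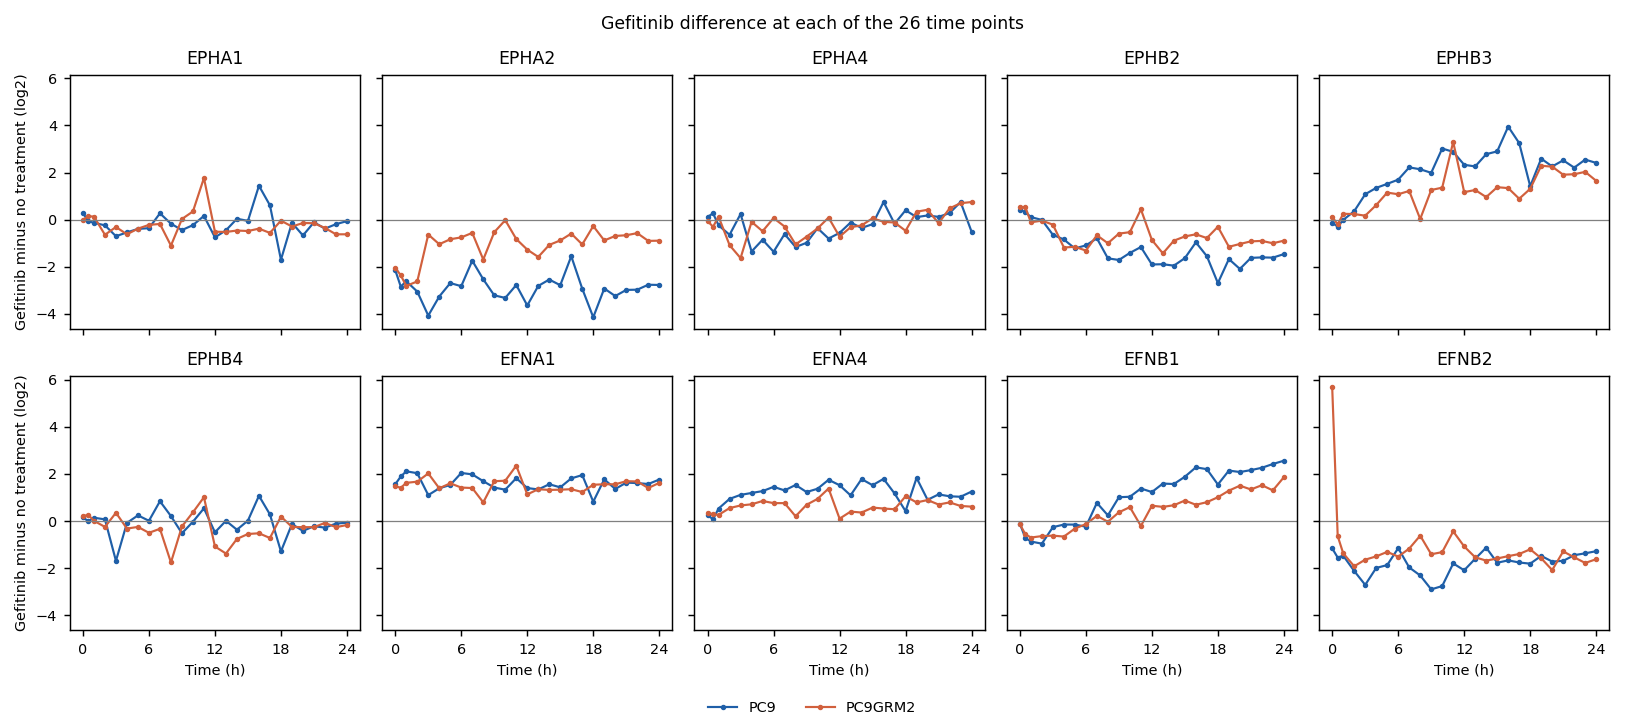
Gefitinib minus no treatment in log2 units (y) against time in hours (x) for the 10 genes, 1 point per time point, in PC9 (blue) and PC9GRM2 (orange), with a grey line at 0. EFNA1 stays level near its means of 1.61 and 1.51, EPHB3 and EFNB1 climb from near 0, and EPHA2 separates between the lines after 2 h.

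The members differed in when the drug difference appeared. At 0 h, after 2 h of gefitinib, EFNA1 already differed by 1.56 in PC9 and 1.48 in PC9GRM2, and the means over 0 to 8 h, 9 to 16 h and 17 to 24 h were 1.73, 1.51 and 1.56 in PC9 and 1.48, 1.53 and 1.53 in PC9GRM2. EPHA2 differed by -2.14 and -2.04 at 0 h, a gap of 0.10 between the lines. EPHA2 then stayed low in PC9, at -2.77, -2.83 and -3.09 over the same windows, whereas it stood at -1.53, -0.85 and -0.74 in PC9GRM2. In gefitinib-treated PC9GRM2 its level was 7.90 at 0 h, 7.04 at 0.5 h, 7.69 at 1 h, 7.69 at 2 h, 9.26 at 3 h and 10.03 at 4 h. Treated PC9 cells read 8.19, 7.92, 8.07, 7.68, 6.69 and 7.14 at those times. EPHA2 thus came back towards the untreated level between 2 and 4 h in PC9GRM2, while in PC9 no treated array passed 8.43.

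EPHB3 and EFNB1 started with little difference in both lines, while EPHB2 started higher with gefitinib and was lower later. EPHB3 was at -0.12 and 0.12 at 0 h in PC9 and PC9GRM2, and at 2.41 and 1.65 at 24 h. EFNB1 went from -0.12 and -0.14 at 0 h to 2.56 and 1.86 at 24 h, and its mean over 0 to 8 h was below 0 in both lines, at -0.25 and -0.36. Its late rise lay beside a fall in untreated cells: in untreated PC9 EFNB1 read 10.04 at 0 h, 11.18 at 2 h and 8.78 at 24 h, and in untreated PC9GRM2 12.15, 12.58 and 10.34, whereas treated PC9GRM2 cells read 12.01, 11.94 and 12.20. EPHB2 was at 0.43 and 0.55 at 0 h and at -1.46 and -0.89 at 24 h.

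Whether the gefitinib difference depended on time was asked of a natural spline with 4 degrees of freedom by limma's F-test. In PC9, 5 members were called, against 52.2% of all genes, and in PC9GRM2 6 were called, against 45.5%. In PC9 the fitted range was 3.11 for EFNB1 (adjusted p = 2.31e-12), 3.08 for EPHB3 (adjusted p = 7.7e-08), 2.31 for EPHB2 (adjusted p = 2.47e-07), 1.31 for EPHA4 (adjusted p = 0.000335) and 1.28 for EFNA4 (adjusted p = 0.00122). EPHA2, with a fitted range of 0.30 (adjusted p = 0.974), and EFNA1, with 0.29 (adjusted p = 0.791), were not called there. In PC9GRM2 the called members were EFNB1 (2.28, adjusted p = 7.24e-10), EPHA2 (1.96, adjusted p = 0.000581), EPHB3 (2.16, adjusted p = 0.00165), EPHB2 (1.55, adjusted p = 0.00194), EPHA4 (1.36, adjusted p = 0.0139) and EFNB2 (3.27, adjusted p = 0.0488). The EFNB2 call rested on the 0 h array, since without 0 h its fitted range was 0.53 (adjusted p = 0.369). Without 11 h, the time of the untreated PC9GRM2 array that resembled its course least, EFNA4 was called with 0.57 (adjusted p = 0.0158). Untreated levels drifted too: 8 members were called for a change over time in PC9, against 66.3% of all genes, and 9 in PC9GRM2, against 67.1%. Each time point of a line had its own slide, so time and slide cannot be told apart in this drift. With time points 3 h apart 0 members were called in PC9 and 2 in PC9GRM2. With scan day as a random block 4 were called in PC9GRM2. The widest fitted drifts were 2.05 for EFNB2, 2.03 for EFNB1 and 1.73 for EPHB3 in PC9. In PC9GRM2 they were 2.74 for EFNB2, a value of 0.66 (adjusted p = 0.0902) without 0 h, 2.13 for EFNB1 and 1.99 for EPHB3.

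**Figure D3:**
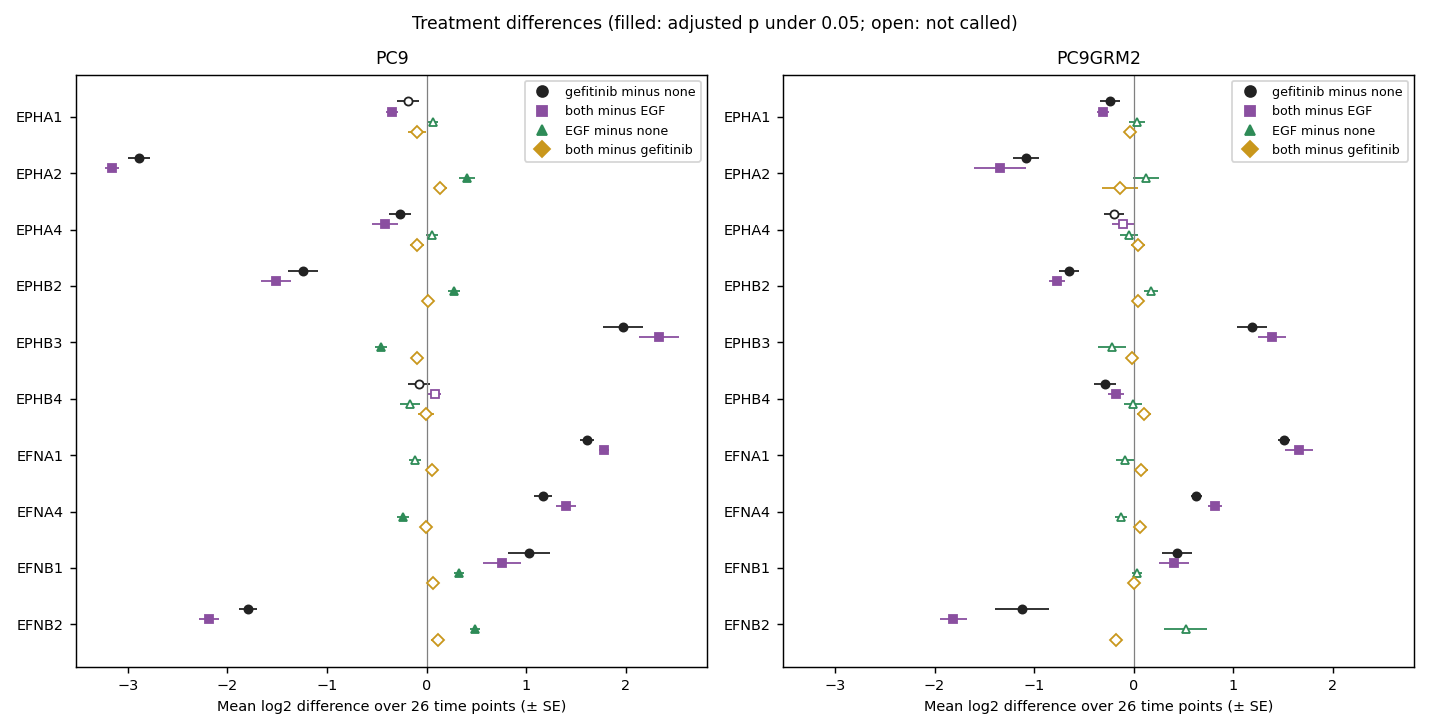
Mean log2 difference over 26 time points (x, bars are SE) of each gene (y) for gefitinib against none, both agents against EGF, EGF against none and both agents against gefitinib, in PC9 (left) and PC9GRM2 (right), with filled symbols for adjusted p under 0.05. With both agents against EGF in PC9 the means run from -3.16 for EPHA2 to 2.33 for EPHB3, and no symbol for EGF on top of gefitinib is filled.

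Gefitinib was also compared in cells given EGF. In PC9, 9 members were called, against 78.9% of all genes, and in PC9GRM2 9 were called, against 74.5%. In PC9 the median EPHA2 level was 10.96 with EGF and 7.79 with both agents, and the ranges of 9.83 to 11.83 and 6.98 to 8.76 did not overlap. EPHA2 fell by 3.16 (SE 0.07, adjusted p = 8.67e-24), with differences from -3.18 to -2.29 over the alternatives. EFNA1 had ranges of 10.77 to 12.07 with EGF and 12.77 to 13.55 with both agents, again without overlap, and rose by 1.78 (SE 0.05, adjusted p = 6.5e-21). Groups without overlap were found for 2.38% of all genes. EFNB2 fell by 2.18 and EPHB2 by 1.51 in PC9, while EPHB3 rose by 2.33, EFNA4 by 1.40 and EFNB1 by 0.76. EPHA4 fell by 0.42 and EPHA1 by 0.35, and EPHB4 differed by 0.08 (adjusted p = 0.279). With normexp the falls were -0.87 for EFNB2 and -0.98 for EPHB2, and with the variance enlarged for neighbouring time points the calls of EFNB1 (adjusted p = 0.402) and EPHA4 (adjusted p = 0.309) were lost.

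In PC9GRM2 the same comparison gave -1.34 for EPHA2 (SE 0.26, adjusted p = 4.14e-05), 1.66 for EFNA1 (SE 0.14, adjusted p = 6.93e-11) and -1.81 for EFNB2 (SE 0.14, adjusted p = 1.04e-11). Without 0.5 h these values were -1.54 (adjusted p = 3.55e-08), 1.80 (adjusted p = 2.9e-17) and -1.92 (adjusted p = 9.29e-16). EPHB3 rose by 1.39, EFNA4 by 0.82 and EFNB1 by 0.40, and EPHB2 fell by 0.77, with 1.42, 0.84, 0.39 and -0.81 in that order without 0.5 h. EPHA1 fell by 0.31 (without 0.5 h -0.33) and EPHB4 by 0.18 (adjusted p = 0.049, and -0.19 with adjusted p = 0.0408 without 0.5 h), a call that held in 7 of 17 alternatives. With normexp the fall of EFNB2 was -0.88, and the EFNB1 call was lost with the enlarged variance (adjusted p = 0.397). EPHA4 differed by -0.11 (adjusted p = 0.377, and -0.12 with 0.353 without 0.5 h). No member, and 0.00753% of all genes, had groups without overlap over 26 time points. Without 0.5 h this share was 2.46%, and EFNA1 was the member among them, with 9.92 to 11.57 in the EGF course and 12.44 to 13.16 in the course with both agents.

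**Figure D4:**
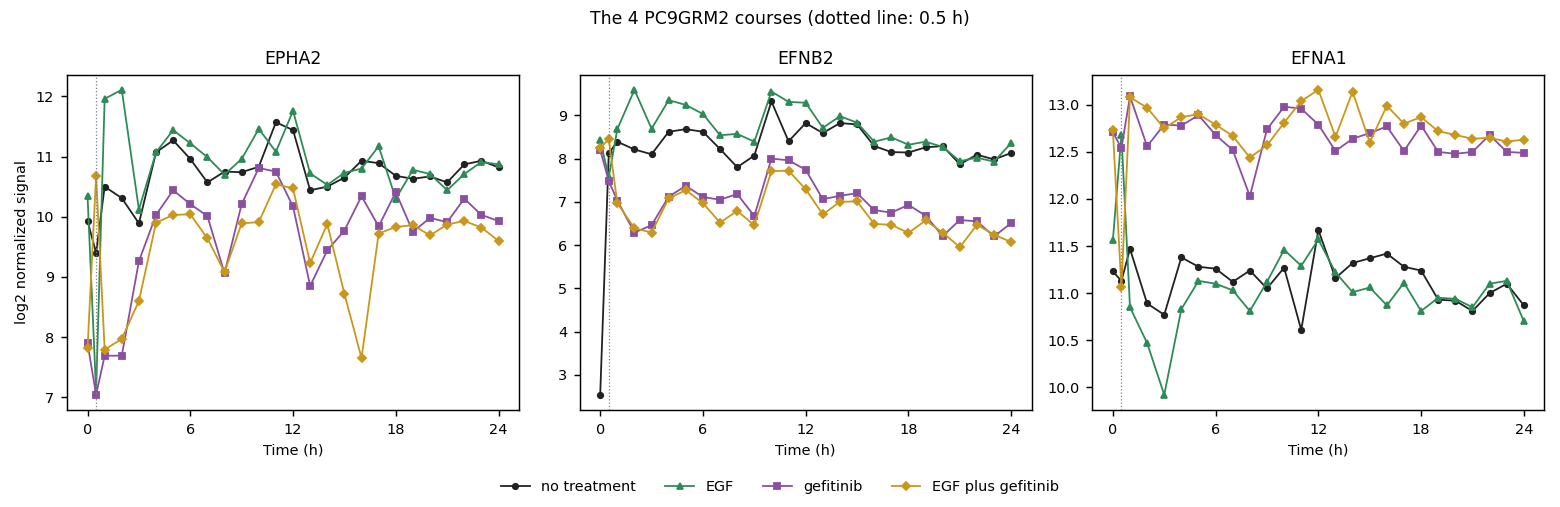
Log2 normalized signal (y) of EPHA2, EFNB2 and EFNA1 against time in hours (x) in the 4 PC9GRM2 courses, 1 array per point, with a dotted line at 0.5 h. At that time EPHA2 reads 7.09 in the library labelled EGF and 10.68 in the library labelled EGF plus gefitinib, each outside the range of its own course at the other 25 time points.

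EGF alone had small effects. In PC9, 6 members were called, against 25.6% of all genes. EFNB2 had medians of 7.79 untreated and 8.38 with EGF and rose by 0.49 (SE 0.05, adjusted p = 2.11e-08, 26 of 26 time points higher), although the ranges overlapped almost fully. EPHA2 rose by 0.41 (SE 0.08, adjusted p = 0.000363), EFNB1 by 0.33 (SE 0.05, adjusted p = 6.39e-06) and EPHB2 by 0.28 (SE 0.06, adjusted p = 0.000632). EPHB3 fell by 0.46 (SE 0.06, adjusted p = 1.03e-06) and EFNA4 by 0.24 (SE 0.06, adjusted p = 0.00262). These differences share the untreated arrays with those of gefitinib. Without the pairing of time points, which is also the pairing on a slide, 0 members were called. In PC9GRM2, 0 members were called with EGF by limma, against 9.12% of all genes, and 3 had an unadjusted p under 0.05 (EFNA4, EFNB2 and EPHB2), while the methods' t-test called 0. EFNB2 differed by 0.52 (adjusted p = 0.139) with all 26 time points, by 0.31 (adjusted p = 0.0068) without 0 h, and by 0.56 (adjusted p = 0.0998) without 0.5 h. The second EFNB2 probe gave 0.16 with all 26 time points. EPHA2 differed by 0.12 (adjusted p = 0.642), and by 0.22 (adjusted p = 0.147) without 0.5 h.

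Adding EGF to gefitinib left 0 members called in PC9 by limma, with 0 at an unadjusted p under 0.05 and 0 by the methods' t-test, where 0.0452% of all genes were called. The member differences there ran from -0.10 to 0.14. In PC9GRM2 0 members were called, against 3.23% of all genes, with 1 at an unadjusted p under 0.05 (EFNB2) and 0 by the methods' t-test. Without 0.5 h, EFNA1 was called at 0.13 (adjusted p = 0.0263) and EFNB2 at -0.22 (adjusted p = 0.00164).

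**Figure D5:**
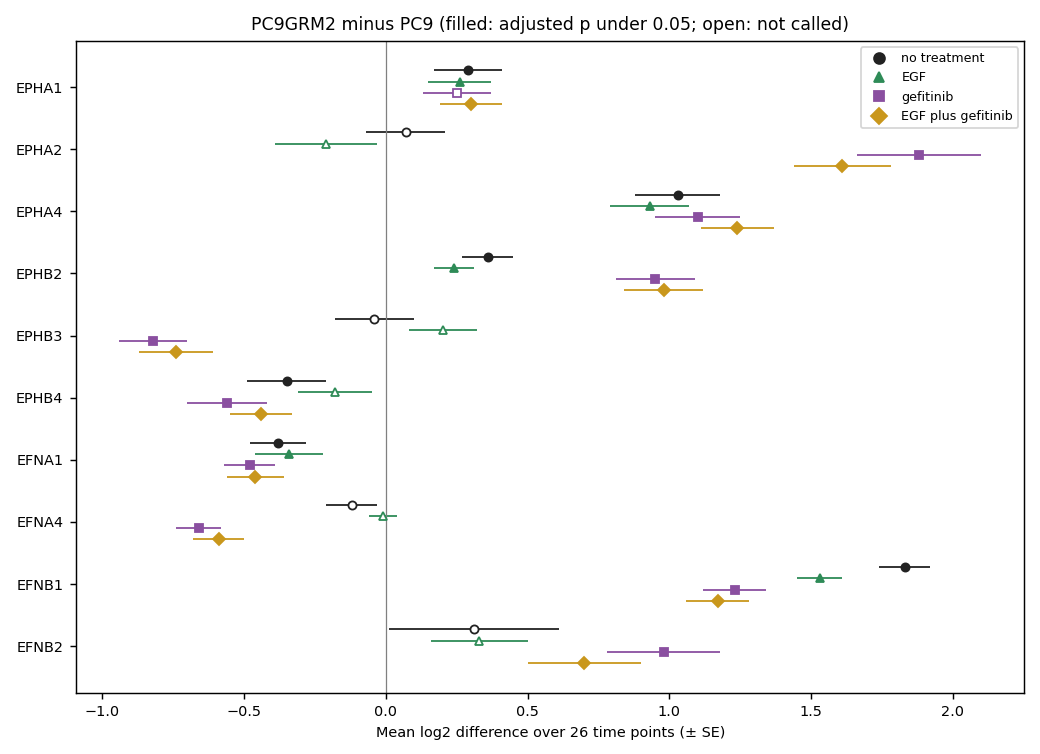
PC9GRM2 minus PC9 as the mean log2 difference over 26 time points (x, bars are SE) of each gene (y) under the 4 treatments, with filled symbols for adjusted p under 0.05. EFNB1 and EPHA4 lie right of 0 under all 4 treatments, and EPHA2 moves from 0.07 untreated to 1.88 with gefitinib.

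Between the lines, EFNB1 and EPHA4 were higher in PC9GRM2 under every treatment, and EPHA2 was called only where gefitinib was present. Of the 10 members, 6 were called without treatment, 9 with gefitinib, 5 with EGF and 10 with both agents, against 68.1%, 64.9%, 69.8% and 67.7% of all genes. EFNB1 had medians of 9.39 in PC9 and 11.39 in PC9GRM2 without treatment, with ranges of 8.65 to 11.18 and 10.34 to 12.75 that overlapped. It was higher in PC9GRM2 at 26 of 26 time points under each treatment, by 1.83 (SE 0.09, adjusted p = 3.12e-17) untreated, 1.23 (SE 0.11, adjusted p = 3.06e-11) with gefitinib, 1.53 (SE 0.08, adjusted p = 1.9e-16) with EGF and 1.17 (SE 0.11, adjusted p = 1.12e-10) with both. Without 0.5 h the last 2 values were 1.54 and 1.13. EPHA4 was higher by 1.03 untreated (adjusted p = 3.71e-07), 1.10 with gefitinib, 0.93 with EGF and 1.24 with both, and its other probes gave smaller differences, 0.43 and 0.47 untreated and 0.63 and 0.70 with gefitinib.

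EPHA2 had medians of 10.62 in PC9 and 10.71 in PC9GRM2 without treatment, and the lines differed by 0.07 (SE 0.14, adjusted p = 0.66). With gefitinib the medians were 7.78 and 9.95, and PC9GRM2 was higher by 1.88 (SE 0.22, adjusted p = 1.74e-08, 23 of 26 time points), or by 1.22 with normexp. With both agents it was higher by 1.61 (SE 0.17, adjusted p = 2.11e-09, and 1.58 without 0.5 h), and with EGF it differed by -0.21 (adjusted p = 0.301, and -0.07 without 0.5 h). EPHB2 was higher in PC9GRM2 by 0.36 untreated, 0.95 with gefitinib, 0.24 with EGF and 0.98 with both. EPHB3 and EFNA4 were lower there with gefitinib, by -0.82 (adjusted p = 8.71e-07) and -0.66 (adjusted p = 1.43e-08), each at 26 of 26 time points, and with both agents, by -0.74 and -0.59. Neither was called without gefitinib, with -0.04 and -0.12 untreated and 0.20 and -0.01 with EGF.

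EFNA1 was lower in PC9GRM2 under all 4 treatments, by -0.38 untreated, -0.48 with gefitinib, -0.34 with EGF and -0.46 with both. Its second probe gave -0.23, -0.34, -0.19 and -0.31, and the EGF call was lost with that probe. EFNB2 was higher in PC9GRM2 by 0.98 with gefitinib (adjusted p = 0.000119, and 0.27 with normexp) and by 0.70 with both agents (adjusted p = 0.0026). Untreated it differed by 0.31 (adjusted p = 0.368), and by 0.56 (adjusted p = 0.00671) without 0 h, and with EGF by 0.33 (adjusted p = 0.0852), and by 0.42 (adjusted p = 0.023) without 0.5 h. The second EFNB2 probe was higher in PC9GRM2 by 0.72 untreated, 1.12 with gefitinib, 0.48 with EGF and 0.75 with both. EPHA1 was higher by 0.29 untreated, 0.26 with EGF and 0.30 with both, and differed by 0.25 (adjusted p = 0.0612) with gefitinib. EPHB4 was lower by -0.35, -0.56 and -0.44 untreated, with gefitinib and with both, and differed by -0.18 (adjusted p = 0.223) with EGF. Without 0.5 h the differences with EGF and with both agents were 0.87 and 1.22 for EPHA4, 0.25 and 1.03 for EPHB2, -0.42 and -0.40 for EFNA1 and 0.26 and 0.29 for EPHA1. With both agents they were -0.77 for EPHB3, -0.61 for EFNA4, -0.43 for EPHB4 and 0.70 for EFNB2, so no direction changed. With scan day as a random block 4 members were called untreated, 8 with gefitinib, 2 with EGF and 6 with both agents, EFNB1 and EPHA4 under each treatment.

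The gefitinib effect itself was compared between the lines at matched time points, and 6 members were called, against 34.0% of all genes. EPHA2 fell less in PC9GRM2, by a difference of 1.81 (SE 0.19, adjusted p = 3.09e-08, 25 of 26 time points), and 0.482% of the tested genes differed more in size. With normexp this difference was 1.13. The fall of EPHB2 was also smaller in PC9GRM2, by 0.60 (adjusted p = 0.00021, and 0.28 with normexp). The rises of EPHB3, EFNB1 and EFNA4 were smaller there, with differences of -0.78 (adjusted p = 0.000266), -0.60 (adjusted p = 4.02e-05) and -0.54 (adjusted p = 8.95e-05). EFNB2 gave 0.67 (adjusted p = 0.045), which was 0.43 (adjusted p = 0.0105) without 0 h, 0.65 (adjusted p = 0.0644) without 11 h and 0.04 (adjusted p = 0.748) with normexp, and the call held in 8 of 17 alternatives. The second EFNB2 probe gave 0.41. The EFNB1 call held in 15 of 17 and was lost without the pairing. EFNA1 differed by -0.10 (SE 0.09, adjusted p = 0.416), EPHA4 by 0.07, EPHA1 by -0.04 and EPHB4 by -0.21, none of them called.

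Of 12 further genes of the family, 5 were tested. The other 7 (EPHA3, EPHA5, EPHA7, EPHA8, EPHA10, EPHB1 and EFNB3) were not, since the probe with the largest variance was too dim. For EPHA10 and EFNB3 another probe was well above background on 26 of 26 arrays of each course and was not tested. Its medians ran from 9.09 to 10.16 for EPHA10 and from 7.44 to 7.85 for EFNB3. Its mean gefitinib difference was -0.37 in PC9 and -0.29 in PC9GRM2 for EPHA10, and -0.07 and 0.05 for EFNB3. With gefitinib 3 of the 5 tested genes were called in each line, all higher, a share no larger than the 72.3% and 66.7% of all genes. EPHB6, a receptor whose kinase domain is inactive, rose by 0.79 in PC9 and by 0.58 in PC9GRM2, and the ligand EFNA3 rose by 1.29 and 0.64. EFNA3 was well above background on 23 untreated and 26 treated arrays of PC9, and on 17 and 23 of PC9GRM2. Its lowest untreated levels were 2.59 in PC9 and 2.11 in PC9GRM2. EPHA6 rose by 1.12 in PC9GRM2 (adjusted p = 1.73e-07), a line in which 22 untreated and 26 treated arrays measured it above background. In PC9 this held for only 1 of 26 untreated and 19 treated arrays, with medians of 1.98 and 4.14, and no size is given there because the untreated level is only a bound. EFNA2 and EFNA5 were called in some comparisons, but were well above background on only 8 to 15 and 12 to 19 of the 26 arrays of a course, and no difference is given for them.

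EFNA4, EFNA3 and EFNA1 are neighbours in that order on chromosome 1 and all 3 rose with gefitinib in both lines. The EFNA3 signal was not well above background on every array. The genes next to the 3 were not called as higher. ADAM15, next to EFNA4, differed by 0.07 (adjusted p = 0.461) in PC9 and -0.23 (adjusted p = 0.0621) in PC9GRM2. SLC50A1, next to EFNA1, differed by 0.09 (adjusted p = 0.268) in PC9 and fell by 0.26 (adjusted p = 0.0019) in PC9GRM2. Further along on the EFNA1 side, DPM3 rose by 0.60 and 0.48 and KRTCAP2 by 0.61 and 0.58. On the EFNA4 side, beyond ADAM15, DCST2 rose by 0.38 and 0.22, and DCST1 was not tested.

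Of 24 genes that act next to the receptors (adaptors, Src-family and ABL kinases, exchange factors, GTPase-activating proteins, the sheddase ADAM10 and PDZ proteins), 22 were tested. With gefitinib 14 were called in PC9, 7 in each direction, and 12 in PC9GRM2, 7 higher and 5 lower, fewer in proportion than the 72.3% and 66.7% of all genes. Their median size of difference was 0.37 in PC9 and 0.28 in PC9GRM2, beside 0.44 and 0.32 over all genes. VAV3, a protein that binds EPHA2, rose by 3.20 in PC9 (SE 0.10, adjusted p = 9.1e-20) and by 3.15 in PC9GRM2 (SE 0.13, adjusted p = 2.43e-17), at 26 of 26 time points in both. The next largest rises were NGEF (ephexin) with 1.11 in PC9 and ADAM10, which cleaves ephrins, with 0.67 in PC9GRM2. The largest falls were CHN2 with -1.31 and ABL1 with -0.72 in PC9, and YES1 with -0.50 and PICK1 with -0.38 in PC9GRM2.

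For each member, the genes outside the family whose levels followed it most closely over the 8 courses were found by Pearson's correlation. These values describe arrays that share treatments, lines and slides, and carry no test. EPHA2 was closest to SPRY4 (0.93) and DUSP6 (0.90), both known as ERK-induced inhibitors of signalling. EFNA1 was closest to PIK3IP1 (0.95) and DEPP1 (0.95), EFNA4 to ERBB3 (0.91) and SYT17 (0.90), and EPHB3 to ADCK5 (0.92) and TARBP2 (0.91). EPHB2 followed CCNE1 (0.89), the gene of cyclin E, and NETO2 (0.88), and EFNB1 followed MRPL58 (0.93) and ACKR3 (0.92). EFNB2 was closest to SMURF2 (0.85) and GPAT3 (0.85), EPHB4 to MLXIP (0.85) and MLLT1 (0.85), EPHA4 to ZNF236 (0.83) and RAB22A (0.81), and EPHA1 to CDC37 (0.78) and UQCC1 (0.78).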

How the data were processed

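The files the authors deposited hold each array's intensities from the scanner software (version 10.5.1.1 in the file headers), corrected for background and not normalized between arrays, and a table of intensities that they had quantile normalized over all 45015 features. Here the scanner intensities of non-control spots were quantile normalized over all arrays of both lines and, with values under 1 set to 1, turned into log2 values, from the deposited intensities. Outlier spots (0.0792% of tested values) were removed and spots of a probe averaged. Probes were named through RefSeq accessions (24794 of 41000 matched), and a gene's probe was that with the largest variance, as in the study's methods. A gene was tested when well above background on at least 13 of 26 arrays of a course. Tests used limma 3.58.1 in R 4.3.3 on differences between arrays of the same time point, which for treatments of a line is also the same slide, and scripts were tested on simulated data. With 1 array per time point, the number of arrays limits the precision.

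Members, lists and comparisons were chosen with earlier results of these data known. All 10 members were named, with further family genes called in a comparison, the 2 largest changes in each direction among the partners, and the 2 closest genes by correlation. The alternatives were other scaling, background correction, probes, filters, floors, tests and subsets of time points. The files used held no mean signal, so normexp (offset 50) used the median signal and the median background. Leaving out 0.5 h or 11 h, and leaving out 0 h in the tests over time for PC9GRM2, was chosen after seeing the data.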

Additional observations from a re-analysis of the deposited data

Results flagged for a closer look

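The effect of gefitinib differed between the lines for 6 members in limma's test of the difference over 26 matched time points, given as PC9GRM2 minus PC9 on the log2 scale. The differences were 1.81 for EPHA2 (adjusted p = 3.09e-08), 0.60 for EPHB2 (adjusted p = 0.00021), 0.67 for EFNB2 (adjusted p = 0.045), -0.78 for EPHB3 (adjusted p = 0.000266), -0.60 for EFNB1 (adjusted p = 4.02e-05) and -0.54 for EFNA4 (adjusted p = 8.95e-05). In each case the mean gefitinib difference had the same direction in both lines and the smaller size in PC9GRM2. The EFNB2 value rested in part on the untreated PC9GRM2 array at 0 h.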

How the results depend on the processing

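Among the member values under an alternative, 2441 kept their direction and their side of the threshold, 182 lost the call, 29 gained one and 38 changed sign, all of them uncalled. A sign could not change for the fitted ranges of the tests over time. Nor could it under the methods' t-test, the enlarged variance, the 2-fold requirement and the one-sided test, which kept the estimate. The deposited value table, a floor of 16 and a filter on all 26 arrays changed no direction or call among 170 values each. Without the pairing of time points (no replicate block), 117 of 130 values kept their direction and side of the threshold and 13 lost the call, and the EGF comparison in PC9 then had 0 members called. The following are counts of members called where they moved by over 1.5 times. EGF in PC9GRM2 gave 1 with normexp, with the mean of all probes, with outlying points smoothed and without 0 h. EGF on top of gefitinib in PC9GRM2 gave 1 with the highest-mean probe, 1 with the mean of all probes and 2 without 0.5 h. With time points 3 h apart, which leaves fewer arrays, counts were 3 for EGF in PC9, 2 between untreated lines, 2 between lines with EGF, 3 for the difference of the gefitinib effect, 2 and 3 for its change over time in PC9 and PC9GRM2, and 0 and 2 for the untreated drift in PC9 and PC9GRM2. With a change of at least 2-fold required, they were 4 for gefitinib in PC9GRM2, with or without EGF, 0 for EGF in PC9, 2, 3, 1 and 3 between lines untreated, with gefitinib, with EGF and with both, and 1 for the difference of the effect. A one-sided test for higher levels in PC9GRM2 gave 5 with gefitinib and 6 with both agents. With the variance enlarged for resemblance of neighbouring time points, 3 members were called between lines with EGF. With scan day as a random block 2 were called between lines with EGF, 6 with both agents and 4 for the drift in PC9GRM2. Sign changes in EGF on top of gefitinib in PC9 were EPHB2 at -0.02 with 75th percentile scaling and -0.00 with normexp, EFNA1 at -0.01 with the highest-mean probe, EPHA4 at 0.01 with the mean of probes, EPHB4 at 0.05 and EFNA4 at 0.01 with smoothing, and EPHA1 at 0.15, EPHB3 at 0.07, EPHB4 at 0.18 and EFNA4 at 0.04 with time points 3 h apart. In PC9GRM2 they were EFNB1 at -0.00 with 75th percentile scaling, -0.01 with normexp, -0.04 with time points 3 h apart and -0.03 without 0.5 h, EPHA4 at -0.06 with the mean of probes, and EPHB2 at -0.05 and EPHB4 at -0.00 with time points 3 h apart. For EGF alone they were EPHA1 at -0.09 and EPHA4 at -0.04 in PC9 with time points 3 h apart, and in PC9GRM2 EPHA1 at -0.01 with smoothing, -0.04 with time points 3 h apart and -0.04 without 11 h, and EPHA4 at 0.01 with time points 3 h apart. Between untreated lines EPHB3 was at 0.04 with smoothing, 0.00 without 0 h, 0.02 with scan day as a block and 0.05 without 11 h, and EPHA2 and EFNB2 were at -0.10 each with time points 3 h apart. Between lines with EGF, EFNA4 was at 0.01 with smoothing, without 0 h and with scan day as a block, and EPHB3 at -0.02 with time points 3 h apart. EPHB4 with gefitinib in PC9 was at 0.01 with 75th percentile scaling. The difference of the gefitinib effect, with time points 3 h apart, was 0.18 for EPHA1, -0.02 for EPHA4, 0.23 for EPHB4 and 0.08 for EFNA1. The cause of these moves was not tested. Among the probes used, the signal over background limits that of EFNB2 most, the only one below the mark on any array. The second EFNB2 probe was well above background on all 26 arrays of each course.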
